A study of Mus musculus with 2 samples.

Results

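The genes described here encode subunits of the transcription factor AP-1: Fos, Fosb and Fosl2 of the Fos family, Jun, Junb and Jund of the Jun family, and Atf3 of the ATF family. They were chosen by name, and the 7 genes were found among the 27998 gene names of both count files. The cells came from the luminal side of the aorta of C57BL6/J mice, young at 8 weeks or old at 18 months, with no other treatment or genotype given, and the labels do not say how many animals were used. Both preparations were made the same way per the labels: removal of the adventitia, warm trypsin for 10 minutes and scraping of the inner surface. Each age gave 1 droplet library (8700 cells loaded) in which the 3′ ends of transcripts were counted by unique molecular identifiers (UMIs). With 1 library per age no difference between ages could be tested. The 95% intervals given here express counting error alone, and age, animal and preparation cannot be told apart.

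AP-1 is a dimer of basic leucine zipper proteins. Fos proteins need a Jun partner to bind DNA, while Jun proteins can also pair with each other or with ATF proteins. Fos, Fosb, Jun, Junb and Atf3 are immediate early genes, which are transcribed within minutes of growth factors, stretch, wounding or stress and whose mRNAs are short-lived. Jund and Fosl2 are regarded as more steadily expressed. In endothelium AP-1 responds to disturbed flow and to inflammatory signals, and the same genes are known to respond to enzymatic dissociation of tissue.

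The members lie on 6 chromosomes. Only Junb and Jund share a chromosome, 8, where they lie far apart, at 84974484 to 84978718 and 70698949 to 70700616. In GENCODE vM21 on GRCm38, Fos spans chromosome 12, 85473890 to 85477273, Jun chromosome 4, 95049034 to 95052222, and Atf3 chromosome 1, 191170296 to 191218039. Jun and Jund are genes of a single exon. No 50-base stretch of the last 500 bases of any member's transcripts occurred in a transcript of another gene. Antisense transcripts overlap Jun (Junos) and Jund (Gm11175) on the opposite strand, and the protein-coding gene Prdx2 overlaps Junb there. The RNA gene Gm24748 overlaps Atf3, also on the opposite strand. Whether counting used strand is not given in the sources used here, so reads of these partners cannot be told apart from those of the member.

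Below stand the 250 bases before the RefSeq start of Fos, Jun and Junb (GRCm38.p6), 3 of the genes that were abundant and lower in old endothelial cells. Jund was also abundant and lower there, but its sequence is not shown. Capitals mark TGACG, the core of the cAMP response element bound by CREB and ATF proteins, and TGANNTCA, an AP-1 or ATF site form, on either strand. The letters TGANTCA, the classical AP-1 site, were searched as well. Positions are counted back from the start, with 1 for the base just before it.
Fos promoter (chr12:85473640-85473889, plus strand): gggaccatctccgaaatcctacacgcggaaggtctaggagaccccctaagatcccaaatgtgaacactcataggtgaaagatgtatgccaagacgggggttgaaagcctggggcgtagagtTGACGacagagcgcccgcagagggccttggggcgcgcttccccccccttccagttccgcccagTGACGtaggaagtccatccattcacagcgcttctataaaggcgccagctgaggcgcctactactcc
Jun promoter (chr4:95052223-95052472, minus strand): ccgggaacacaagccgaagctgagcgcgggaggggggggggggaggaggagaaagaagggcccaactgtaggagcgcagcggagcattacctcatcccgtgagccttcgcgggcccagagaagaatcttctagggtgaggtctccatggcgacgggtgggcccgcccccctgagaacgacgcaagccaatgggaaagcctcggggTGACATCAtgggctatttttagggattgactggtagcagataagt
Junb promoter (chr8:84978749-84978998, minus strand): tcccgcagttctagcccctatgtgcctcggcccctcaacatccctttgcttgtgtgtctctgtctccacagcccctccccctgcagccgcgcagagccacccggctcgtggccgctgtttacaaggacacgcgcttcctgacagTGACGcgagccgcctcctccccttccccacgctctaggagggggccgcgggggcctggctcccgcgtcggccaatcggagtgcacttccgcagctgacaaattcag

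In Fos, TGACG began 129 and 66 bases before the start, and the letters TATAAA began 33 bases before it. Jun held TGACATCA, a match to TGANNTCA, 45 bases before its start. TGACG also stood 106 bases before the start of Junb, 60 bases before that of Fosb and 7 bases before that of Atf3, in Atf3 on the other strand, and Jund held a match to TGANNTCA 61 bases before its start. Of the 32851 RefSeq promoters searched in the same way, 17.8% held TGACG, 11.9% TGANNTCA and 6.75% TGANTCA. A match describes letters only, and Fosl2 had no match to any of these motifs in its window. RefSeq and GENCODE starts differ for some members. The Jund window ends at 70697738, before the GENCODE start at 70698949, and the Fosl2 and Atf3 windows lie inside the GENCODE spans of these genes. Windows of Fosb, Fosl2 and Atf3 overlap GENCODE exons. Whether each window precedes the start used in these cells was not tested.

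Of 1366 young and 3408 old barcodes, 1359 and 3330 passed the cell filters, and 11 barcode sequences occurred in both libraries. Clusters were formed without the members and without other early genes, and were named by fixed markers. EC-like (endothelial) cells were 1096 young and 2429 old, and fibroblast-like cells 240 and 576. Macrophage-like cells were 11 young and 149 old, and lymphocyte-like cells (T or NK and B cells together) 10 and 118, so young values of both immune classes rest on very few cells. Each class carried its own markers: 10 endothelial markers summed to 8874 CPM (UMIs per 1000000 of the class total) in the young EC-like cells and 8681 CPM in the old ones, and 10 macrophage markers to 12590 and 18959 CPM in macrophage-like cells. The 8 fibroblast markers summed to 35762 CPM in the young fibroblast-like cells and 21314 CPM in the old, and the 8 T or NK markers to 2009 and 5104 CPM in lymphocyte-like cells. In the young lymphocyte-like cells Nkg7 and Ccl5 were at 0, and naming cells by their own markers gave 5 young cells of this class. In the young macrophage-like cells Fcgr1 and Ms4a7 were at 0, and the 10 endothelial markers summed to 2720 CPM there and to 1374 CPM in old. Median depth was 7382 UMIs per young and 5049 UMIs per old EC-like cell, and levels are therefore given as CPM of the class total. A 3′ UMI count takes 1 tag per molecule and is not scaled to transcript length.

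Of the 7 members, 6 were lower in old than in young EC-like cells, with intervals clear of 0, and 1 member, Fosl2, had an interval that held 0. Of all genes in this class 41.1% were lower. Expressed as log2 of old over young, the members' median ratio was -1.10, against 0.06 over all 10065 genes with at least 100 UMIs in this class. At least 2-fold lower were 5 members (Fos, Fosb, Junb, Jund and Atf3), where 1.96% of all genes passed this fold in this direction. None of the 7 was at least 2-fold higher, a fold that 1.3% of genes passed. Jund sat on the threshold, at 2.01-fold, and fell short of it under alternatives such as equal weights for all cells, which gave a log2 ratio of -0.94.

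Among the Fos family, Fos stood at 877 CPM (8918 UMIs) in the young EC-like cells and at 216 CPM (3144 UMIs) in the old ones. The log2 ratio was -2.02 (95% interval -2.08 to -1.96), a level 4.06-fold higher in young. Fosb, whose short-lived transcript is induced alongside Fos, stood at 252 and 63.9 CPM (-1.98, -2.09 to -1.87). Both therefore differed by about the same factor. Fosl2, which encodes Fra-2, stood apart, with 20.6 and 21.7 CPM and a ratio of 0.07 (-0.18 to 0.33).

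The Jun family was lower by smaller factors. Jun stood at 1099.6 CPM in young against 685 CPM in old cells of this class (-0.68, -0.72 to -0.64). Junb stood at 1099 and 513 CPM (-1.10, -1.14 to -1.06). Jund, regarded as transcribed more steadily, stood at 901 and 449 CPM, 2.01-fold higher in young. In young cells the 3 Jun family genes and Fos held like numbers of UMIs, whereas in old cells Fos held fewer than any Jun family gene.

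Atf3, a stress-induced member that forms dimers with Jun proteins and often acts as a repressor, had the lowest ratio of the members. Its young level was 111 CPM (1125 UMIs) and its old level 13.5 CPM (197 UMIs), which gives -3.03 on the log2 scale (-3.26 to -2.81). The old level was no higher than the 17.5 CPM (3 UMIs, upper bound 51.1 CPM) of old erythroid cells. Whether the old Atf3 level is background was not tested, and 3 UMIs are too few to tell. The ratio may therefore not measure an old endothelial level. The order of the old levels in EC-like cells was Jun, Junb, Jund, Fos, Fosb, Fosl2, Atf3, with no overlap of neighbouring intervals. In young cells Jun and Junb did not differ beyond counting error, nor did Jund and Fos, and Atf3 stood above Fosl2.

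**Figure D1:**
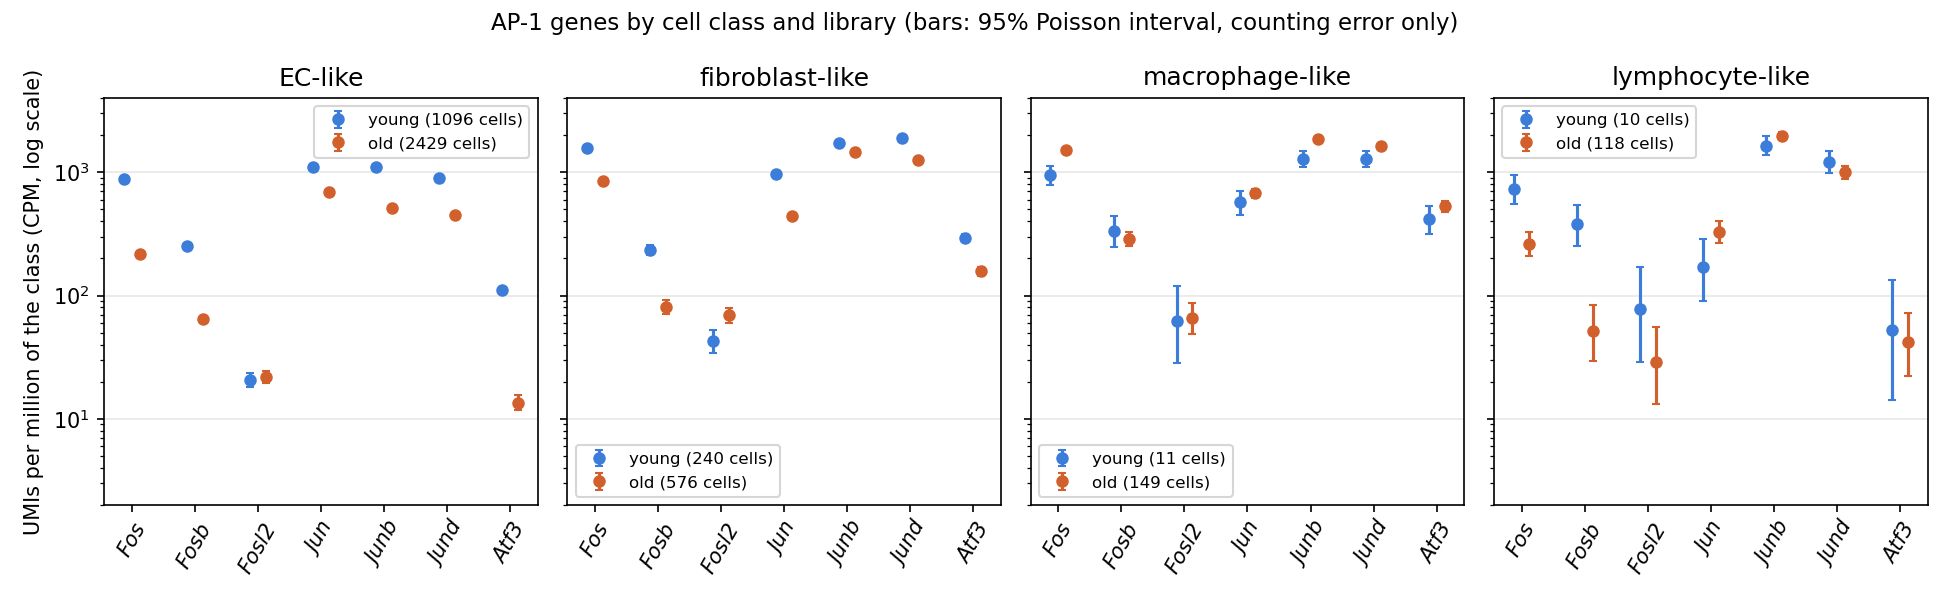
CPM of the class total (log axis) for the 7 AP-1 genes in 4 cell classes, young library in blue and old in orange, with 95% Poisson intervals. In EC-like cells the old points lie below the young ones except for Fosl2, at 20.6 and 21.7 CPM.

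Fibroblast-like cells showed a shallower difference with another order. The median log2 ratio was -0.89 over the 7 members against -0.08 over 5659 genes, and 6 members had intervals below 0, in a class where 59.3% of genes were lower. At least 2-fold lower were 2 members, Fosb and Jun, where 2.65% of genes passed this fold in this direction. None was at least 2-fold higher, as 1.63% of genes were. Fos stood at 1582 CPM against 856 CPM from young to old (-0.89, -0.96 to -0.81). Jun stood at 967 and 445 CPM (-1.12, -1.22 to -1.02), so here Jun had a lower ratio than Fos, the reverse of the order in EC-like cells. Junb differed least, at 1712 and 1456 CPM (-0.23, -0.30 to -0.17).

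In the same class Jund stood at 1907 and 1257 CPM (-0.60, -0.67 to -0.54). Fosb stood at 233 and 80.8 CPM (-1.53, -1.76 to -1.30). Atf3 stood at 293 and 157 CPM (-0.90, -1.08 to -0.73), against the far lower 13.5 CPM of old EC-like cells. Fosl2 was higher in old fibroblast-like cells, at 42.5 and 69.0 CPM (0.70, 0.34 to 1.08). Its ratio was smaller, 0.32, from sums at equal depth and 0.47 with each cell weighted equally. The difference of any ratio between the classes was not tested. Cluster 2 (226 young and 70 old cells) held most young cells and cluster 6 (14 and 506) most old ones. Between cluster 6 of the old and cluster 2 of the young library the same 2 members were at least 2-fold lower, where 3.23% of 5412 genes were. These cells are most of the class, so this nearly repeats the class comparison and is no separate support. The 70 old cells of cluster 2 held 1221 CPM of Fos, between the old 826 CPM of cluster 6 and the young 1604 CPM of cluster 2. The 14 young cells of cluster 6 held 1148 CPM (949 to 1376), also between those 2 levels. From young to old, the class's own fibroblast markers were 35762 and 21314 CPM (8 of 8 seen in both), summed endothelial markers 449 and 958 CPM (10 of 10 seen in both), macrophage markers 21.2 and 144 CPM (6 and 9 of 10, with Fcgr1 at 0 in both), and erythroid markers 25.6 and 1336 CPM (4 and 5 of 6). Their part in these ratios was not tested.

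Among the old classes, macrophage-like cells held the highest Fos, at 1511 CPM (1102 UMIs), against 946 CPM (136 UMIs) in the 11 young cells. That is a log2 ratio of 0.68 (0.42 to 0.94). Junb stood at 1280 and 1875 CPM (0.55, 0.33 to 0.78) and Jund at 1287 and 1633 CPM (0.34, 0.12 to 0.58). Atf3 stood at 417 and 528 CPM, with an interval that held 0 (-0.06 to 0.76). The members' median was 0.34 against 0.01 over 1157 genes. None of the 6 members with at least 100 UMIs passed 2-fold either way, where 5.79% of genes were at least 2-fold lower and 7.61% at least 2-fold higher. This depended on the setting: with cells named by their own markers, which left 4 young cells, Junb stood at 1.30, Jund at 1.30 and Atf3 at 2.05, and from sums at equal depth Jun stood at 1.06. From young to old, erythroid markers in this class were 6.96 and 1574 CPM (1 and 5 of 6 seen), endothelial markers 2720 and 1374 CPM (9 of 10 in both, Kdr at 0), and their part in these ratios was not tested.

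The macrophage-like class was made of 2 clusters that differed in AP-1 level and in library. Cluster 4, led by Retnla, Lyz2 and Cxcl2, held 10 young and 81 old cells. Cluster 9, led by C1qa, C1qc and Pf4, held 1 young and 68 old cells. In the old library Fos stood at 1070 CPM in cluster 4 and at 2453 CPM in cluster 9. Jun stood at 359 and 1349 CPM and Jund at 1180 and 2599 CPM. Atf3 stood at 421 CPM in cluster 4 and at 756 CPM in cluster 9.

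Within cluster 4 alone, a comparison added after seeing the data, the log2 ratio of old over young was 0.36 for Fos (0.07 to 0.66) and 0.40 for Junb (0.17 to 0.64). There Jun was lower in old, at -0.64 (-1.03 to -0.24), and so was Fosb, at -0.56 (-1.07 to -0.03). Jund stood at -0.09 and Atf3 at -0.01, both with intervals that held 0. None of the 6 members with at least 100 UMIs in cluster 4 was 2-fold lower, where 5.5% of 818 genes were. The members thus went both ways within cluster 4, and their median of -0.01 describes no shared direction.

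Lymphocyte-like cells had a Jun family profile led by Junb, the member known for its role in T cell differentiation. Junb stood at 1643 CPM in young (126 UMIs) and 1965 CPM in old (609 UMIs), a ratio of 0.26 (-0.02 to 0.55). Fos stood at 730 CPM (56 UMIs) and 261 CPM (81 UMIs), a ratio of -1.48 (-1.99 to -0.96), and Jun at 170 and 329 CPM (0.96, 0.12 to 1.91). At equal depth, the 10% of old cells with the most Junb held 45.5% of its UMIs, with up to 52 in 1 cell. For Jun that share was 60.3%, with up to 17 UMIs in 1 cell. The intervals do not include this spread between cells. One of the 4 members with at least 100 UMIs, Fos, was at least 2-fold lower, where 15.9% of 446 genes were, and none 2-fold higher, where 10.5% were. In cluster 7 alone, which was named T or NK and held all young lymphocyte-like cells, Fos was again 1 of 4 members at least 2-fold lower, at -1.34, where 16.8% of 388 genes were. Jun was at least 2-fold higher there, at 1.13 (0.29 to 2.09), where 10.1% of genes were. Most ratios of this class moved with the setting: Jun ran from -0.33 to 2.08, Junb from -1.07 to 1.05, Jund from -1.35 to 0.60 and Fos from -2.62 to -1.26. From young to old, macrophage markers in this class were 822 and 184 CPM (3 and 7 of 10 seen, Adgre1, Fcgr1 and Cd14 at 0 in both), erythroid markers 222 and 719 CPM (3 and 5 of 6), B cell markers 717 and 1558 CPM (2 and 7 of 7) and platelet markers 0 and 1010 CPM (0 and 4 of 4). Their part in these ratios was not tested. The 29 old B cell-like cells of cluster 11 had no UMI of Atf3 or Fosl2, which allows up to 65.0 CPM of either, and 141 CPM of Fos.

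**Figure D2:**
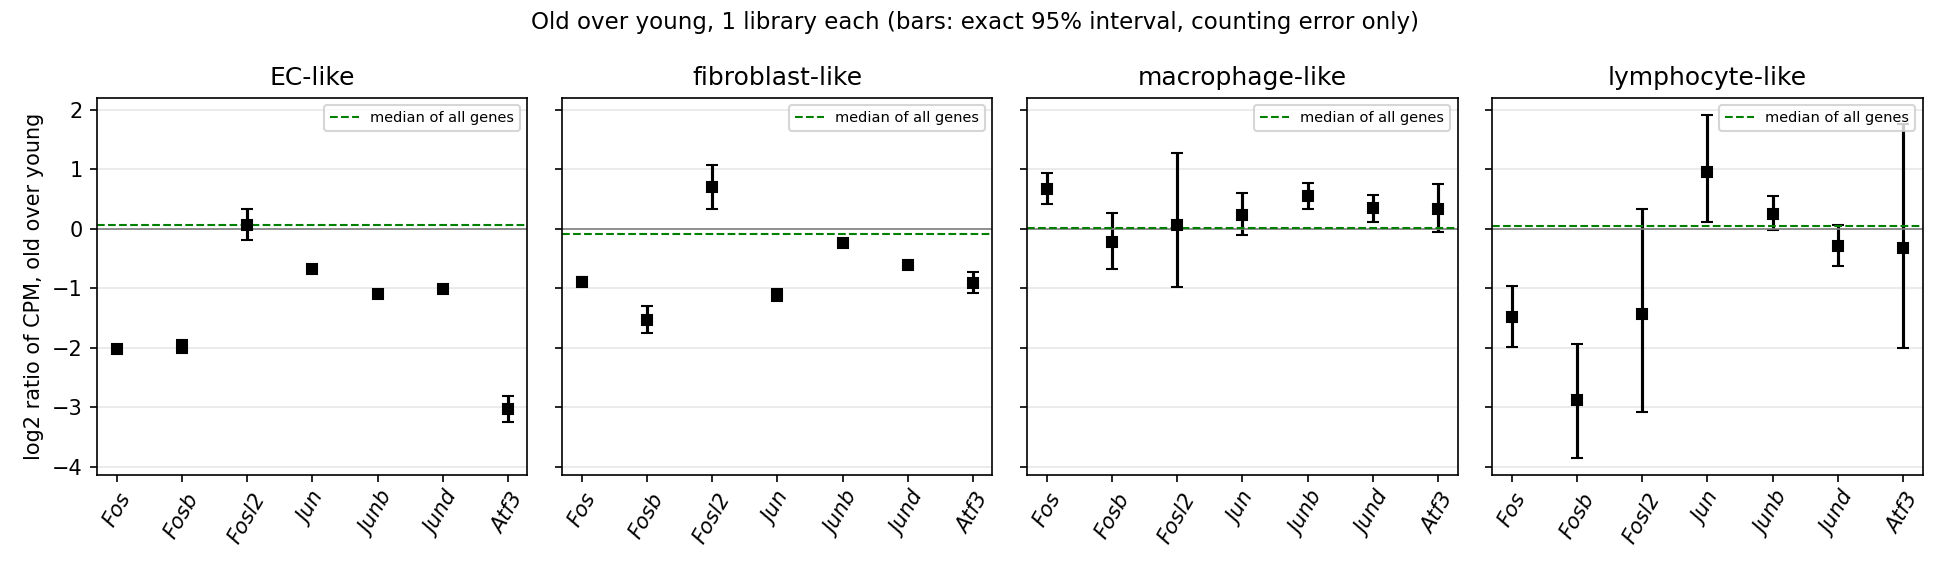
Log2 ratio of CPM, old over young, for each AP-1 gene in 4 classes, with exact 95% intervals and the median of all genes as a dashed green line. Ratios in EC-like cells reach -3.03 for Atf3, whose old level there is no higher than in erythroid cells, while those in macrophage-like cells lie from -0.21 to 0.68.

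Across classes of the old library, where each of the 4 classes has over 100 cells, EC-like cells held the least Junb, Jund and Atf3 in CPM. Fos ran from 216 CPM in EC-like and 261 CPM in lymphocyte-like cells, which did not differ beyond counting error, to 856 CPM in fibroblast-like and 1511 CPM in macrophage-like cells. Atf3 ran from 13.5 CPM in EC-like and 41.9 CPM in lymphocyte-like cells to 157 CPM in fibroblast-like and 528 CPM in macrophage-like cells. Jun had another order, with 685 CPM in EC-like and 675 CPM in macrophage-like cells, which did not differ beyond counting error, 445 CPM in fibroblast-like and 329 CPM in lymphocyte-like cells. Old erythroid cells, which are expected to transcribe little of these genes, held 93.2 CPM of Fos, 134 CPM of Jun and 17.5 CPM of Atf3 over 39 cells. The Atf3 level of old EC-like cells was thus no higher than that of erythroid cells.

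The EC-like cells fell into clusters that were nearly all young or nearly all old, so the libraries were also compared between clusters of like leading genes, a comparison added after seeing the data. Cluster 1 (453 young and 1 old cell) and cluster 3 (20 young and 539 old) both had Adra2a and Coch among their 10 leading genes. Cluster 0 (604 young and 14 old) and cluster 5 (19 young and 1875 old) both had Spon1 and Mmrn2 among theirs. In the Adra2a and Coch pair Fos stood at 914 against 168 CPM from young to old (-2.45, -2.57 to -2.33). In the Spon1 and Mmrn2 pair it stood at 840 and 232 CPM (-1.86, -1.93 to -1.79). In the first pair 5 members were at least 2-fold lower, where 1.6% of 7752 genes were. In the second, 4 members were, where 1.6% of 9286 genes were.

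Atf3 stood at 111 CPM in the young cells of both pairs, and at 12.3 and 13.8 CPM in the old cells, again no higher than in erythroid cells. Fosl2 had intervals that held 0 in both pairs. The few cells that clustered with the other library can be set beside these values. In the 20 young cells of cluster 3 Fos stood at 1307 CPM (interval 1095 to 1547), far from the 168 CPM of the old cells there. In the 19 young cells of cluster 5 it stood at 397 CPM (281 to 545), between the 232 CPM of old cells there and the 840 CPM of young cells of cluster 0. In the 14 old cells of cluster 0 it stood at 433 CPM (272 to 656), also between those levels. Their Jun, at 926 CPM (680 to 1231), lay between the 743 CPM of old cells of cluster 5 and the 1236 CPM of young cells of cluster 0. Their Junb, at 374 CPM (225 to 585), lay below the young 1207 CPM, with an interval that held the 555 CPM of old cells of cluster 5.

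**Figure D3:**
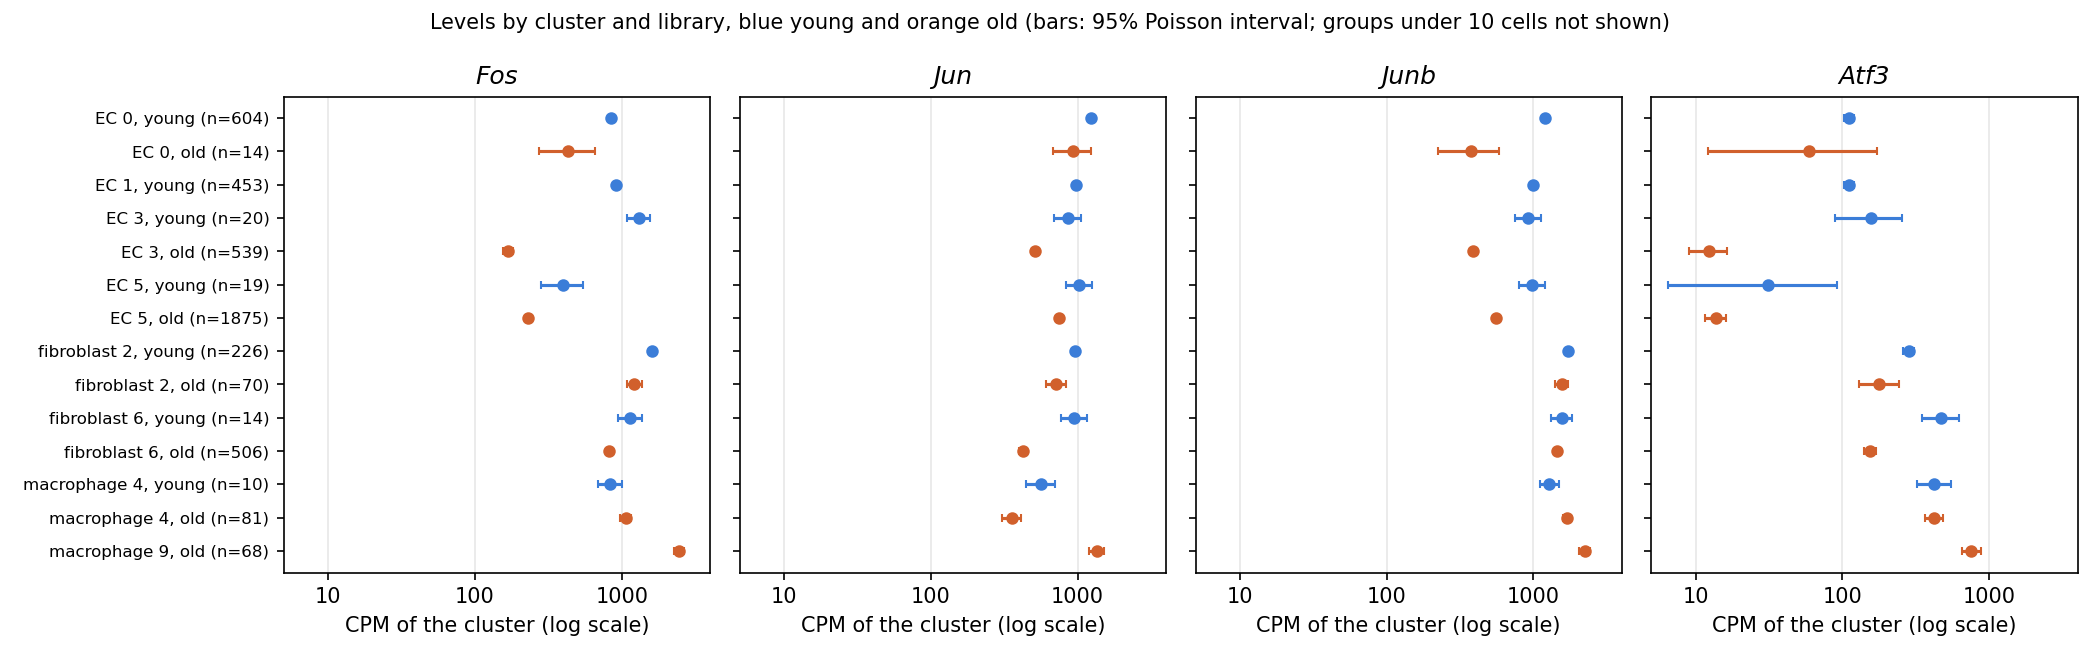
CPM of Fos, Jun, Junb and Atf3 (log axes) by cluster and library in EC-like, fibroblast-like and macrophage-like cells, young in blue and old in orange, with 95% Poisson intervals. For Fos, old cells of clusters 3 and 5 lie at 168 and 232 CPM, and old cells of macrophage-like cluster 9 at 2453 CPM.

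To see how evenly the transcripts were spread, every cell was thinned to 2000 UMIs, which left out 0 young and 156 old EC-like cells. At this depth a Fos UMI was seen in 49.7% (46.7 to 52.7%) of the young and 26.7% (24.9 to 28.6%) of the old EC-like cells, and before thinning in 71.4% and 45.7%. The shares expected over all possible draws were 49.3% and 27.1%, and no member's share in EC-like cells lay more than 1.49 percentage points from that expectation. As a background, 18.4% of 38 old erythroid cells had a Fos UMI at equal depth (7.74 to 34.3%), with a median of 4152 UMIs per cell before thinning. The share of EC-like cells with 5 or more Fos UMIs was 12.8% in young and 0.968% in old. Jun was more widely seen, in 74.9% (72.2 to 77.5%) and 67.8% (65.8 to 69.7%), and Jund in 71.5% and 55.4%, from young to old. In erythroid cells the shares at equal depth were 15.8% for Jun and 23.7% for Jund. Before thinning Jun was seen in 93.9% and 86.6% of EC-like cells and Jund in 90.7% and 80.4%.

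Atf3 was rarer: it was seen at equal depth in 13.8% (11.8 to 16.0%) of the young and 2.60% (1.98 to 3.34%) of the old EC-like cells, and before thinning in 31.8% and 6.71%. The old share was no higher than the 2.63% (0.0666 to 13.8%) of old erythroid cells and may be background, which was not tested. In old macrophage-like cells, at a lower median depth of 4109 UMIs, Atf3 was seen in 58.6% of cells at equal depth, and in old fibroblast-like cells in 24.1%. The random draw moved Atf3 in young fibroblast-like cells, at 25% against an expected 32.2%, so the expected shares are compared there: 32.2% in young and 22.4% in old, and before thinning 57.1% and 36.8%. By the same draw the log2 ratio of Atf3 in fibroblast-like cells was -0.23 in place of -0.90, while the expected means were 0.644 UMI per young and 0.358 UMI per old cell. Fos in fibroblast-like cells was seen in 67.9% (61.6 to 73.8%) of the young and 59.5% (55.2 to 63.6%) of the old.

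Fos was spread less evenly than most genes of like level. Its Fano factor, the variance of UMIs per cell divided by their mean, was 4.95 in young EC-like cells, against a median of 1.12 over 56 genes of like mean. In old EC-like cells it was 1.97, against 1.03 over 331 genes. The 10% of cells with the most Fos held 50.7% of its UMIs in young and 62.0% in old. This share depends on the mean, 1.75 UMIs per young and 0.446 UMI per old cell, so it is not compared across ages. Jun had Fano factors of 2.62 and 1.74, and Jund of 1.80 and 1.33. Fosl2 was near the value of a random draw, 1.04 in young and 0.98 in old. These factors grow with the mean, which differed between the libraries, so they are given beside genes of like mean and not compared across ages.

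**Figure D4:**
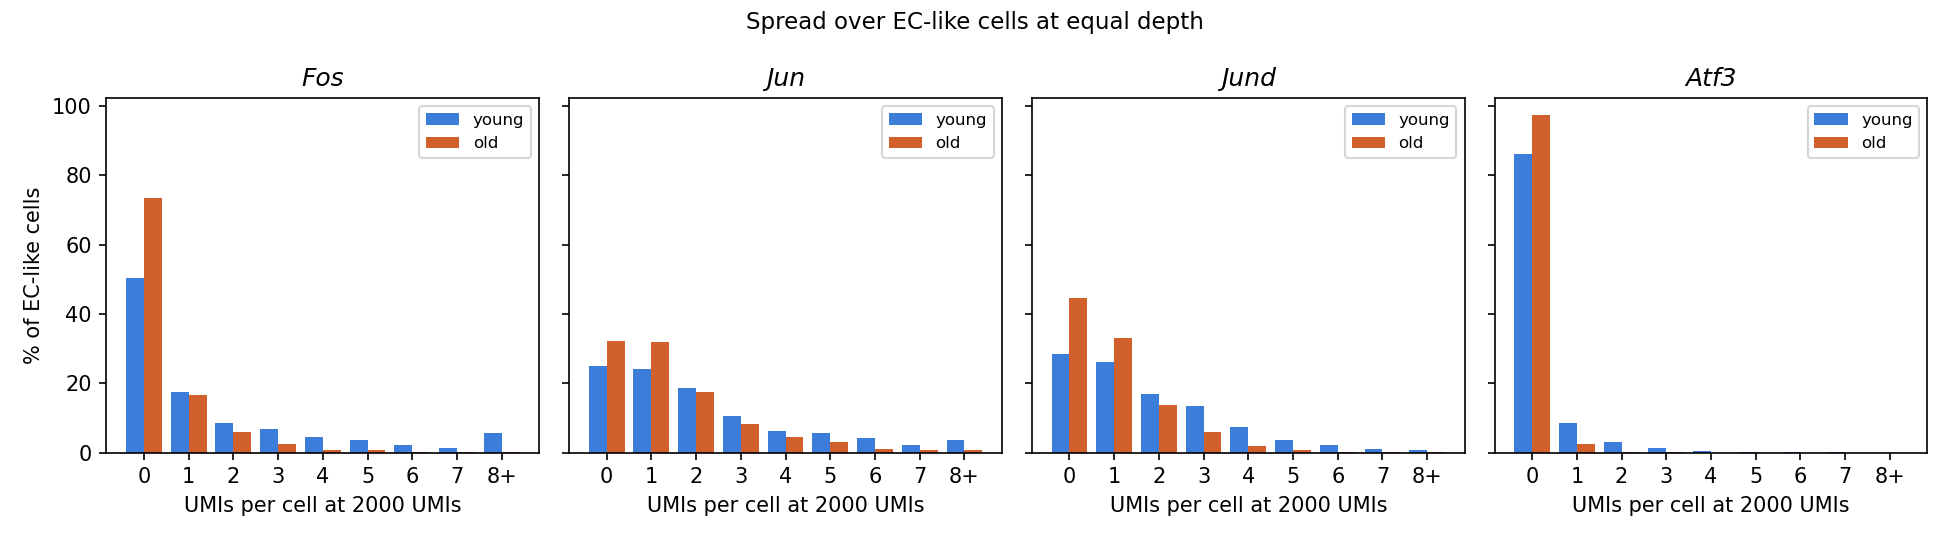
Share of EC-like cells by the number of UMIs of Fos, Jun, Jund and Atf3 per cell after thinning to 2000 UMIs, young in blue and old in orange. No Fos UMI was seen in 50.3% of young and 73.3% of old cells, and 8 or more in 5.75% and 0.132%.

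Several members were often seen in 1 cell. In EC-like cells at equal depth a median of 3 members was seen per young cell and 2 per old cell. At least 1 member was missing in nearly all cells, with all 7 seen in 3 of 1096 young and 1 of 2273 old cells. Cells without any member made up 3.83% (2.78 to 5.14%) of the young and 9.24% (8.08 to 10.5%) of the old. Exactly 6 members were seen in 6.30% of young and 0.440% of old cells.

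Fos and Fosb had the highest rank correlation of any pair in young EC-like cells, Spearman's rho 0.51 over 1096 cells that share a library and a depth. In old cells the same pair had a rho of 0.26 over 2273 cells, at lower mean counts. Pairs with Fosl2 lay between -0.02 and 0.05 in young cells. Among all genes whose thinned mean reached 0.1 UMI, the 5 most like Fos over young EC-like cells were Fosb, Jun (0.46), Junb (0.44), Jund (0.43) and the early gene Egr1 (0.41), and over old cells Egr1 (0.26), Junb (0.26), Fosb (0.26), Ier2 (0.23) and Jun (0.23). The median rho over all genes compared was 0.00 in both libraries.

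Over the 7 class-by-library sums with at least 20 cells, the gene most like Fos was Dusp1, a phosphatase that switches off the MAP kinases upstream of Fos, with a Pearson r of 0.98. Next came Slc39a11 (0.96), Bhlhe40 (0.95), Mpv17l (0.95) and Nup98 (0.95). Dusp1 was also the gene most like Atf3 (0.95), followed by Ap2a2 (0.94), Fos (0.94), Prr5 (0.93) and Rgl1 (0.93). For Jun they were Herpud1, Dennd4c, Iars, Tubb2a and Irf2bp2, each with an r of 0.99. These are descriptions over 7 sums that share 2 libraries.

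**Figure D5:**
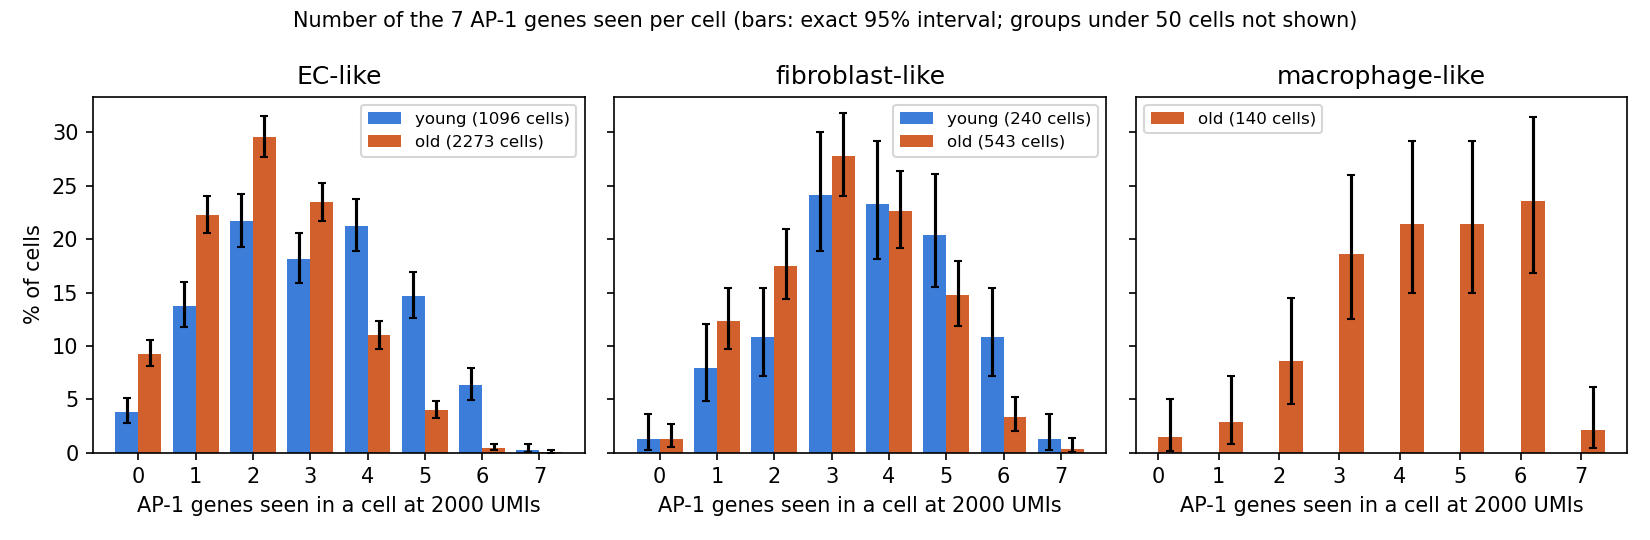
Share of cells by how many of the 7 AP-1 genes were seen at 2000 UMIs, with exact 95% intervals, young in blue and old in orange. Among EC-like cells 0 members were seen in 3.83% of young and 9.24% of old cells, and among old macrophage-like cells 6 were seen in 23.6%.

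The relation of the cells' summed members to depth differed between classes. Over young EC-like cells the summed count at equal depth had a Spearman's rho of 0.10 with the cell's total UMIs and -0.16 with its mitochondrial share, and over old cells -0.06 and -0.05. In old macrophage-like cells the rho with total UMIs was -0.42 over 140 cells, so there the cells with more UMIs held fewer AP-1 UMIs at equal depth. These cells pool cluster 4 (median 5466 UMIs, Fos at 1070 CPM) and cluster 9 (median 3168 UMIs, Fos at 2453 CPM). The rho within each cluster was not computed. The rho with total UMIs was -0.23 in young and -0.16 in old fibroblast-like cells, and -0.23 in old lymphocyte-like cells. Median mitochondrial shares were 2.12% in young and 2.69% in old EC-like cells. From young to old EC-like cells, summed erythroid markers were 25.3 and 558 CPM (5 of 6 seen in both), macrophage markers 34.2 and 116 CPM (8 and 10 of 10, Adgre1 and Fcgr1 at 0 in young), and fibroblast markers 726 and 709 CPM (8 of 8). Their part in the AP-1 ratios was not tested.

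Genes around AP-1 did not all share its pattern. Of 33 other early genes measured in EC-like cells, 28 were lower in old and 17 at least 2-fold lower (1.96% of all genes were), with a median log2 ratio of -1.02. Lowest were Sik1, a salt-inducible kinase (-2.52, -2.79 to -2.25), and Cyr61, a matricellular target of YAP (977 and 244 CPM), while Gadd45b (0.39) and Dusp6 (0.30) were higher. In fibroblast-like cells 16 of 32 genes of the same list were lower, against 59.3% of all genes, with a median of 0.02. There 1 was at least 2-fold lower and 3 at least 2-fold higher, against 2.65% and 1.63% of all genes. Egr1, a zinc finger early gene chosen here after its values were seen, stood at 546 and 243 CPM in EC-like cells (-1.16) but at 927 and 961 CPM in fibroblast-like cells (0.05, -0.03 to 0.13).

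Upstream kinases and promoter-binding factors stood near the all-gene median in EC-like cells, at 0.00 over 25 measured genes. Of these 13 were lower, none at least 2-fold lower and 1 at least 2-fold higher. The shares over all genes were 41.1%, 1.96% and 1.3%. Map2k3 (-0.23) and Elk4, a partner of SRF at serum response elements (-0.22), were lowest, and Map3k5, the stress kinase ASK1 (1.35, 0.73 to 2.01), and Map2k6 (0.84) highest. Both of the highest were scarce, Map3k5 at 2.75 and 7.01 CPM and Map2k6 at 3.54 and 6.32 CPM from young to old. Of 10 measured other AP-1 family genes and dimer partners 6 were lower, against 41.1% of all genes, with a median of -0.10. Among the 10, 2 were at least 2-fold lower, against 1.96% of all genes, and none 2-fold higher. The small Maf genes Maff (-1.17) and Mafk (-1.04) were lowest, and Atf7 (0.22, 0.05 to 0.38) was among the highest.

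Stress and heat shock genes were split in EC-like cells: of 19 measured, 10 were lower and 9 higher, none by 2-fold, with a median of -0.02. Ddit4 (-0.87) and Gadd45a (-0.66) were lowest, and Cdkn1a, the p21 gene (0.74), and Hsp90aa1 (0.31) highest. Regulators of AP-1 activity or mRNA, most of them negative, had a median of 0.15 over 12 genes. This list shares genes such as Dusp1 and Dusp6 with the early genes. Of its genes 4 were lower and 8 higher, where 41.1% of all genes were lower. Among them the MAP kinase phosphatase Dusp1 stood at 709 against 256 CPM (-1.47) and Spry2 at -1.45, while Pura stood at 0.51 and Dusp6 at 0.30. Known AP-1 target genes had a median of -0.08 over 18 genes, with 10 lower. Among the 18, 1 was at least 2-fold lower and 2 at least 2-fold higher, against 1.96% and 1.3% of all genes. Of the target genes Edn1, the endothelin gene (-1.12), was lowest, and Lgals3 (1.28) and Ccnd1, a cyclin (1.02), highest. Lgals3 was scarce, at 2.65 CPM (27 UMIs) in young and 6.46 CPM (94 UMIs) in old.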

How the data were processed

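The authors deposited raw UMI counts (whole numbers, genes by barcodes) for 1 young and 1 old library. Cell Ranger and GRCm38 are named in the submitters' processing notes, while neither version nor annotation is given in the sources used here. Cells with under 200 genes or over 10% mitochondrial UMIs were left out. Scrublet marked 6 young and 6 old barcodes (0.44% and 0.18%), which were removed, and so few calls leave doublets largely unfiltered. Cells of both libraries were clustered together (scanpy 1.11.5, 2000 variable genes, 30 components, 15 neighbours, Leiden resolution 0.5) without the members and 39 other early genes. A cluster took the name of the marker list whose markers were seen, on average, in the largest share of its cells. At least 3 of these markers had to be seen in 25% of its cells. Top genes of a cluster were taken against cells of other names. Members and lists were chosen with earlier results of these data known.

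Class sums of UMIs were scaled to the class total (CPM). Ratios carry exact conditional binomial intervals, levels exact Poisson and shares Clopper-Pearson ones, all at 95%. Called means at least 2-fold, among genes with at least 100 UMIs. A member at 0 in a library was set to 3 counts. Of each list the 2 highest and 2 lowest genes in EC-like cells were named, except for some that are not reported here, and likeness used log2(CPM + 10). The ratio code was tested on simulated counts. Alternatives changed the clustering, naming, filters, doublets, scaling, depth and low counts. Python 3.11.15, numpy 2.4.6 and scipy 1.17.1 were used.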

Additional observations from a re-analysis of the deposited data

Results flagged for a closer look

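For 4 members the ratio of old over young had opposite signs in different classes, with intervals clear of 0 on both sides, and no difference between classes was tested. Fos stood at 0.68 in macrophage-like cells, against -2.02 in EC-like, -0.89 in fibroblast-like and -1.48 in lymphocyte-like cells. Junb stood at 0.55 in macrophage-like cells, against -1.10 in EC-like and -0.23 in fibroblast-like cells. Jund stood at 0.34 in macrophage-like cells, against -0.60 in fibroblast-like cells, and was 2.01-fold higher in young in EC-like cells. Jun stood at 0.96 in lymphocyte-like cells, against -0.68 in EC-like and -1.12 in fibroblast-like cells. The macrophage-like and lymphocyte-like ratios rest on 11 and 10 young cells. In old lymphocyte-like cells Jun was also concentrated, with 17 UMIs in 1 cell at equal depth. In cluster 4 alone, Fos stood at 0.36, Junb at 0.40 and Jund at -0.09.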

How the results depend on the processing

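The members' median log2 ratio kept its sign under every alternative run in EC-like cells (-1.36 to -1.01) and fibroblast-like cells (-0.89 to -0.71). It was -1.05 in EC-like and -0.81 in fibroblast-like cells without the 5% of cells with the most UMIs, -1.16 and -0.81 when centred on the median of all genes, and -1.03 and -0.71 from sums at equal depth. In EC-like cells it was -1.01 with each cell weighted equally, -1.36 in the Adra2a and Coch clusters and -1.24 with both cluster pairs weighted equally. Without mitochondrial, ribosomal protein and haemoglobin genes it was -0.74 in fibroblast-like cells, where 1 member in place of 2 was then at least 2-fold lower. In EC-like cells 4 or 5 members were at least 2-fold lower under each alternative. The Fos share of young and old EC-like cells was 45.2% and 21.9% at 1500 UMIs and 55.9% and 35.0% at 3000 UMIs, and its Fano factor 3.87 and 1.72, then 6.30 and 2.57. In macrophage-like cells of cluster 4 alone Jund reversed to -0.09 (-0.0898), and Jun in lymphocyte-like cells to -0.33 with a stricter cell filter; the cause was not tested. The Fos shares expected over all draws, added after seeing the data, were 49.3% and 27.1%. Keeping the early genes for clustering and a Leiden resolution of 1.0 changed the class of 0 of 4689 cells. The median ran from -0.01 to 0.76 in macrophage-like and from -1.74 to -0.09 in lymphocyte-like cells, whose young cells are too few for firm ratios. No paired analysis was possible because each age has 1 library.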
